A study of Mus musculus with 16 samples.

Results

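The genes described here are 8 markers of sustentacular cells that belong neither to the cytochrome P450 enzymes nor to the conjugating enzymes of these cells. They are Ermn, Cbr2, Muc2, Hes1, Sec14l3, Fmo2, Aldh1a7 and Ephx1, taken as the array features annotated to them, and all 8 were among the 19505 genes measured. Sustentacular cells are the supporting cells of the olfactory epithelium: they span its full height, hold the sensory neurons apart, engulf dying neurons and break down inhaled chemicals. Besides P450 enzymes they are known for other detoxifying enzymes, for Notch signalling during their formation and for proteins of lipid handling and of the apical surface.

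Olfactory mucosa came from 24 S100a5-tauGFP mice on the C57BL/6 background, of both sexes and 7 to 12 weeks old, in which a green fluorescent protein reports S100a5, a gene of olfactory sensory neurons that follows their activity. All mice spent 40 h alone in chambers with clean air at 3.1 L/min, and from 26 h on they received pulses of 10 s every 20 min, either of the odorant whiskey lactone (odor) or of filtered air (vehicle). Cells of 3 mice at a time were pooled and sorted by GFP fluorescence, and each fraction of each pool was hybridised to 1 Affymetrix array. This gave 4 groups of 4 arrays: odor pools titled GFP+, odor pools titled GFP-, vehicle pools titled GFP+ and vehicle pools titled GFP-. All 4 groups carry the reporter, neither sorted fraction was purified for sustentacular cells, and the number of arrays limits the precision.

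On all 16 arrays the cell type field names the fraction the opposite way from the title. S100a5 itself was lower in the arrays titled GFP+, by a log2 difference of -1.34 in odor pools and -1.23 in vehicle pools. Groups are therefore named by title only, and if the cell type field is right, every fraction difference below changes sign. Signals are given as log2 values, and differences between fractions subtract the titled GFP- from the titled GFP+ value, those between treatments vehicle from odor. The median signal of an array over all its features lay between 6.08 and 6.47, and the median of its negative control features, used as the level of background, between 4.98 and 5.59. The mature neuron marker Omp lay between 18.4 and 18.8 on every array, in both fractions. In such bulk samples a lower signal can come from fewer cells of a type or from less RNA per cell, and these cannot be told apart.

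Of the 8 genes, 5 were above the negative control median on all 16 arrays: Cbr2, Sec14l3, Ephx1, Fmo2 and Muc2. Ermn was above it on 11 arrays and Aldh1a7 on 7. Hes1 was above it on 0 of 16 arrays, and on each array between 18.3% and 41.6% of the negative controls were dimmer than Hes1. The 8 genes thus include 1 whose transcript was not measured above background here.

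**Figure D1:**
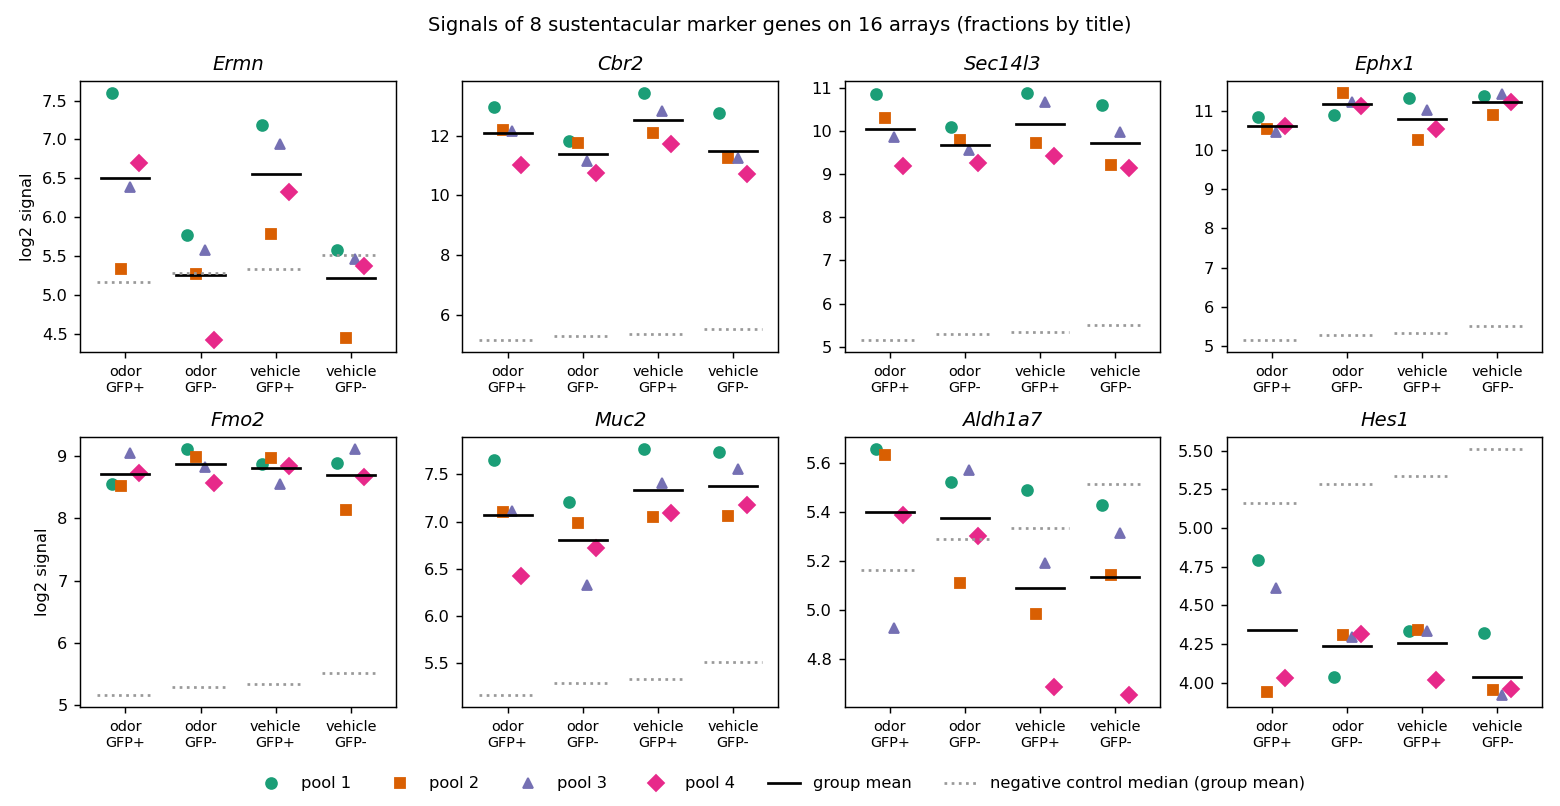
Log2 signal (y axis) of each of the 8 genes in the 4 groups (x axis, odor titled GFP+, odor titled GFP-, vehicle titled GFP+, vehicle titled GFP-). Each point is 1 array, its colour and shape give the pool number, solid lines are group means and dotted lines the mean of the negative control medians. Ermn and Cbr2 were higher and Ephx1 lower in the titled GFP+ array of all 8 pools, and every Hes1 point lies below the dotted line.

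The comparison of the 2 sorted fractions asks whether these markers parted with the reporter sort. In odor pools, 2 of the 8 genes (Ermn and Cbr2) were higher in the arrays titled GFP+ and 1 (Ephx1) was lower, at an adjusted p below 0.05. Over all genes tested, 12.8% were higher and 14.7% lower, 27.5% in all. In vehicle pools, 3 of the 8 (Ermn, Cbr2 and Sec14l3) were higher and 1 (Ephx1) lower, against 12.3% and 13.6% of all genes, 26.0% in all. With 8 genes each gene is a large share of the count, and the counts were not tested against that background. At an unadjusted p below 0.05, 4 of the 8 passed in odor and 4 in vehicle pools, against 39.4% and 37.9% of all genes. The median log2 difference of the 8 genes was 0.19 in odor and 0.16 in vehicle pools, against -0.15 and -0.14 for all genes. Without Hes1, which lay below background, the medians were 0.27 and 0.11.

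Ermn encodes ermin, an actin-binding protein of the cell cortex best known from the myelin of oligodendrocytes. Its log2 signal was 7.59, 5.33, 6.39 and 6.69 in odor pools 1 to 4 titled GFP+, against 5.78, 5.27, 5.57 and 4.43 in the same pools titled GFP-. Pool 2 titled GFP+ lay within the range of the titled GFP- arrays, yet each of the 4 pools was higher in its titled GFP+ array, by 0.06 to 2.27. In vehicle pools it was 7.18, 5.78, 6.93 and 6.32 titled GFP+, against 5.58, 4.45, 5.47 and 5.37 titled GFP-. Here the groups did not overlap. Ermn rose by 1.24 ± 0.30 in odor pools (SE, n = 4 pools; limma, adjusted p = 0.00749) and by 1.34 ± 0.30 in vehicle pools (adjusted p = 0.00502). Only 2 of the 4 odor arrays and 1 of the 4 vehicle arrays titled GFP- were above the negative control median for Ermn, while all 8 arrays titled GFP+ were, so no fold is given. With each array set to at least its negative control median, a floor chosen after the data were seen, the differences were 1.02 and 1.00, without a test. Leaving out 1 pool at a time left the adjusted p at or below 0.0494 in odor and 0.0313 in vehicle pools. Centring the arrays on housekeeping genes ended both calls, at 0.28 (adjusted p = 0.360) and 0.45 (adjusted p = 0.148). Over the 19 alternatives tried, the adjusted p ran from 0.000901 to 0.360 for odor and from 0.00135 to 0.148 for vehicle pools.

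Since Ermn is also a myelin gene, markers of myelin and ensheathing glia were set beside it. Of 9 such genes measured, 1 was higher in odor pools (Sox10, a transcription factor of glia) and 2 in vehicle pools (Sox10 and the myelin protein gene Pmp22, by 0.91). Sox10 was not above the control median on any array titled GFP-, so its difference is a bound, taken against that median. It was at least 1.07-fold in odor pools and at least 1.30-fold in vehicle pools, and these bounds were not tested. The differences as deposited were 1.10 (limma, adjusted p = 0.0115) and 1.56 (adjusted p = 0.00123). The myelin genes Mag, Mog and Mobp were above the control median on 0 of 16 arrays and Mbp on 6. The mean log2 signal of the 9 genes was 4.55 to 4.80 in odor arrays titled GFP+ and 4.41 to 4.83 in odor arrays titled GFP-. In vehicle arrays it was 4.65 to 4.97 titled GFP+ and 4.46 to 4.61 titled GFP-, below the lowest negative control median on every array. As deviations from the 4 group means, Ermn and this mean correlated with a Pearson r of 0.68 over 16 arrays. The part of glial cells in the Ermn difference was not tested.

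Cbr2 encodes a carbonyl reductase, known in the mouse as an abundant lung enzyme that reduces aldehydes and ketones. It had log2 signals of 12.96, 12.19, 12.16 and 11.03 in odor pools 1 to 4 titled GFP+, against 11.82, 11.77, 11.16 and 10.76 titled GFP-. In vehicle pools it had 13.42, 12.09, 12.82 and 11.73 titled GFP+, against 12.77, 11.25, 11.26 and 10.72 titled GFP-. The groups overlapped in both treatments because the pools differed widely, but within each of the 8 pools the titled GFP+ array was the higher one, by 0.27 to 1.56. Cbr2 rose by 0.71 ± 0.17 in odor pools (1.63-fold, 95% interval 1.27 to 2.09; limma, adjusted p = 0.00617) and by 1.01 ± 0.17 in vehicle pools (2.02-fold, 1.58 to 2.59; adjusted p = 0.000483). The call rested on comparing fractions within a pool: without the pool as a block the adjusted p was 0.257 and 0.107, and with the pool as a random block 0.169 and 0.0536. Median centring of the arrays brought the odor difference to 0.33 (adjusted p = 0.0701) and the vehicle difference to 0.65, still past the threshold. Housekeeping centring turned the odor difference to -0.25 (adjusted p = 0.115) and left the vehicle difference at 0.13 (adjusted p = 0.413). Over 19 alternatives the adjusted p ran from 0.00193 to 0.257 for odor and from 0.000208 to 0.413 for vehicle pools.

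Sec14l3 belongs to the Sec14-like proteins, which bind lipids such as tocopherols and phospholipids and move them between membranes. Its log2 signals were 10.87, 10.31, 9.86 and 9.20 in odor pools 1 to 4 titled GFP+, against 10.11, 9.81, 9.57 and 9.26 titled GFP-. In vehicle pools they were 10.88, 9.72, 10.68 and 9.43 titled GFP+, against 10.62, 9.21, 9.98 and 9.14 titled GFP-. The groups overlapped in both treatments, and the titled GFP+ array was the higher one in 7 of 8 pools, all but odor pool 4. The difference was 0.37 ± 0.15 in odor pools, with a 95% interval of 0.06 to 0.69 and an adjusted p of 0.0759 (limma), and 0.44 ± 0.15 in vehicle pools (0.12 to 0.76; adjusted p = 0.0417). The vehicle call was close to the threshold and held in the same direction in 8 of 19 alternatives, with adjusted p from 0.00447 to 0.656 over all 19. It was lost without any 1 of the vehicle pools, at adjusted p of 0.0719, 0.116, 0.156 and 0.0673 without pools 1, 2, 3 and 4, and without odor pool 2 (0.0518) or 3 (0.0541). It was also lost under median centring (0.656) and without the pool block (0.427), while the odor difference passed without odor pool 4 (0.52, adjusted p = 0.0287; 0.00287 to 0.967 over the alternatives). Cyclic loess gave 0.55 in odor and 0.59 in vehicle pools and centring on mature neuron genes 0.65 and 0.75, all past the threshold, while housekeeping centring turned the difference to -0.59 and -0.45.

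Ephx1 encodes microsomal epoxide hydrolase, which opens the reactive epoxides that P450 enzymes form. It went the other way from Ermn and Cbr2. It had log2 signals of 10.83, 10.54, 10.45 and 10.62 in odor pools 1 to 4 titled GFP+, against 10.89, 11.44, 11.21 and 11.12 titled GFP-. In odor pools the groups did not overlap. In vehicle pools the signals were 11.31, 10.26, 11.02 and 10.53 titled GFP+, against 11.38, 10.90, 11.43 and 11.21 titled GFP-. Vehicle pools 1 and 3 titled GFP+ lay within the titled GFP- range, but in all 8 pools the titled GFP+ array was the lower one, by 0.06 to 0.90. Ephx1 fell by 0.56 ± 0.15 on the log2 scale in odor pools (1.47-fold, limma, adjusted p = 0.0132) and by 0.45 ± 0.15 in vehicle pools (1.36-fold, adjusted p = 0.0413). The 95% intervals were -0.88 to -0.24 and -0.77 to -0.13. The call depended on single pools: the adjusted p was 0.0727 without odor pool 2 and 0.0719 without odor pool 3 in the odor contrast, and 0.143, 0.0868 and 0.159 without vehicle pools 2, 3 and 4 and 0.0524 without odor pool 4 in the vehicle contrast. Without the pool block the vehicle contrast had an adjusted p of 0.111. Its direction held in all 19 alternatives, but cyclic loess gave -0.39 (adjusted p = 0.0895) and -0.31 (0.189), and centring on mature neuron genes -0.28 (0.304) and -0.14 (0.634). The adjusted p ran from 5.69e-07 to 0.304 for odor and from 2.69e-06 to 0.634 for vehicle pools.

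The other 4 genes did not pass the threshold between fractions in either treatment. Fmo2, a flavin-containing monooxygenase that oxidises nitrogen and sulfur compounds, had log2 signals of 8.56, 8.51, 9.06 and 8.73 in odor pools titled GFP+ and 9.11, 8.99, 8.83 and 8.57 titled GFP-. In vehicle pools it had 8.87, 8.96, 8.55 and 8.84 titled GFP+ and 8.89, 8.13, 9.10 and 8.66 titled GFP-. The titled GFP+ array was the higher one in 4 of 8 pools. Its difference was -0.16 with a 95% interval of -0.62 to 0.30 in odor pools and 0.11 with an interval of -0.35 to 0.57 in vehicle pools.

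Muc2, the secreted gel-forming mucin best known from intestinal goblet cells, lay at 6.43 to 7.65 in odor arrays titled GFP+ and 6.33 to 7.20 in those titled GFP-, and at 7.05 to 7.77 in vehicle arrays titled GFP+ and 7.06 to 7.73 in those titled GFP-. It was higher in the titled GFP+ array in 4 of 8 pools. Odor pools gave a difference of 0.27 (95% interval -0.14 to 0.67) and vehicle pools one of -0.05 (-0.46 to 0.36). Aldh1a7, a cytosolic aldehyde dehydrogenase of rodents close to Aldh1a1, was above the control median on 3 of 4 odor arrays titled GFP+ and 3 of 4 titled GFP-. In vehicle pools it was above it on 1 of 4 arrays titled GFP+ and 0 of 4 titled GFP-, so no fold is given there. Its odor difference was 0.02 (-0.41 to 0.46).

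Hes1, a transcriptional repressor that Notch signalling induces and that marks sustentacular cells in the mouse, lay at 3.94 to 4.79 in odor arrays titled GFP+ and 4.04 to 4.32 in those titled GFP-. In vehicle arrays it lay at 4.02 to 4.34 titled GFP+ and 3.92 to 4.32 titled GFP-. All these values are below the negative control median of their arrays, so no fold is given for Hes1.

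**Figure D2:**
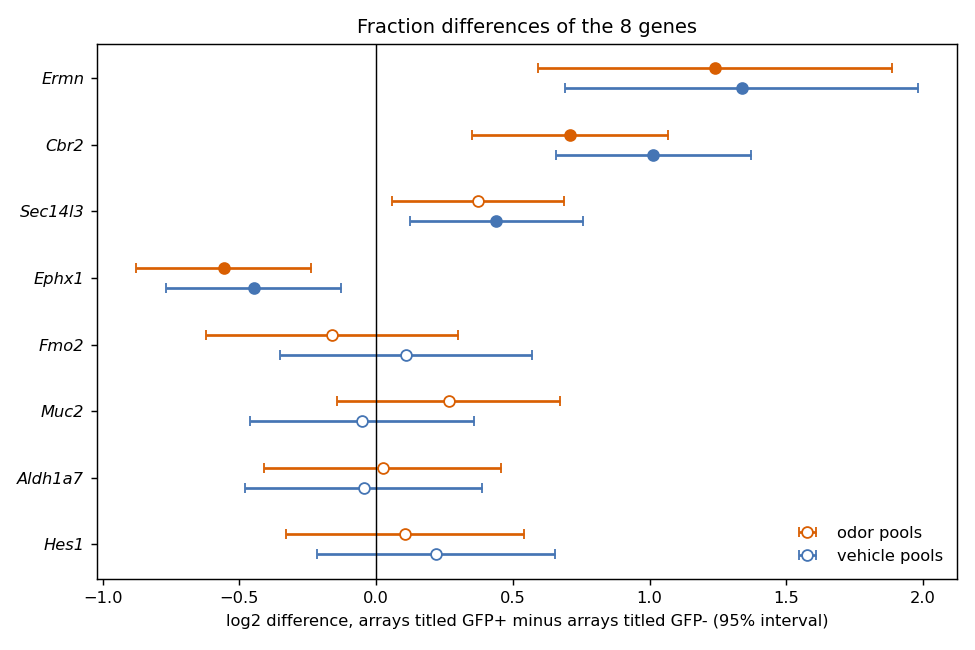
Log2 difference between arrays titled GFP+ and arrays titled GFP- (x axis) for the 8 genes (y axis), in odor pools (orange, upper of each pair) and vehicle pools (blue, lower), with 95% intervals from limma. Filled points passed an adjusted p of 0.05: Ermn and Cbr2 to the right of 0 and Ephx1 to its left in both treatments, and Sec14l3 to the right in vehicle pools, although under housekeeping centring Cbr2 in odor pools and Sec14l3 in both treatments lie to the left.

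The sequences just before the start of transcription are shown for the 4 genes that passed in at least 1 fraction contrast. They are 150 bases each from RefSeq, build GRCm38.p6, in the direction of the gene. Capitals mark TTGGC or its reverse complement GCCAA, the short motif that nuclear factor I proteins recognise. Such proteins are known in the rat to bind the promoter of Cyp2a3, a P450 gene of the nasal mucosa.
Ermn, chr2:58052865-58053014, minus strand: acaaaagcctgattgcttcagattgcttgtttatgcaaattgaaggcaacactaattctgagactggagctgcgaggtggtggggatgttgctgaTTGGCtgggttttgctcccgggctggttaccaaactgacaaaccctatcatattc
Cbr2, chr11:120732022-120732171, minus strand: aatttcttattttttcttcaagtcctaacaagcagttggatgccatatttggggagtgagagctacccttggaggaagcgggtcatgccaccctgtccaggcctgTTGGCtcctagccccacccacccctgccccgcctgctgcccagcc
Sec14l3, chr11:4064703-4064852, plus strand: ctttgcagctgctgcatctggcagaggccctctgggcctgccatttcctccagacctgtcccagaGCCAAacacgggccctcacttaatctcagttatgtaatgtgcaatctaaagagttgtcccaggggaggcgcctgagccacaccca
Ephx1, chr1:181017570-181017719, minus strand: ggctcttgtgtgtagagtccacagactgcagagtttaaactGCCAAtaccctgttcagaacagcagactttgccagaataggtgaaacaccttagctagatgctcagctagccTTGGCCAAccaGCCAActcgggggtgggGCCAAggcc

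The window of Ephx1 held 5 copies of this motif, of which one pair overlaps, and the windows of Ermn, Cbr2 and Sec14l3 held 1 each. The Ermn site lies 55 to 51 bases before the start and overlaps a CCAAT box read on the other strand. A CCAAT box also overlaps 1 of the copies of Ephx1 and the copy of Aldh1a7. The Cbr2 site lies 45 to 41 bases before the start and the Sec14l3 site 85 to 81 bases before it. Muc2 and Aldh1a7 had 1 copy each, and Fmo2 had 0 in one of its 2 listed windows and 2 in the other, while the RefSeq table matched 7 of the 8 genes (not Hes1). At least 1 copy was thus found in 7 of the 8 windows, and in 29.0% of 32851 windows of the same length over all genes. Both the genes that were higher and the gene that was lower carried the letters, as did genes that passed in neither direction. The motifs AACAAT and TATAAA, searched on both strands, were in 0 of the 8 windows, and in 5.31% and 7.57% of all windows.

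The relatives of each gene, listed by family, showed which member of a family parted with the fractions. For Ermn these are the linkers between membrane and actin. Ezr (ezrin, a protein of microvilli; 3.31 in odor and 3.34 in vehicle pools), Rdx (radixin, 3.70 and 3.89) and Msn (moesin, common in leukocytes; 1.22 and 1.34) were higher in the arrays titled GFP+, each past the threshold in both treatments and positive under all 4 other scalings, although Msn passed under 3 of them. Nf2 and Slc9a3r1 did not pass, at -0.28 and -0.08 in odor and -0.32 and -0.10 in vehicle pools. With Ermn, 4 of 6 genes of this group were higher in each treatment.

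Among the 5 measured relatives of the carbonyl reductase group, Cbr2 included, Cbr1 went against Cbr2. Cbr1, the broadly expressed cytosolic carbonyl reductase, fell by 0.39 on the log2 scale in odor pools (limma, adjusted p = 0.0152) and by 0.44 in vehicle pools (adjusted p = 0.00748). It was lower in 8 of 8 pools, and passed under 2 of the 4 other scalings in odor and 3 in vehicle pools. Dcxr, which reduces dicarbonyls and sugars, was at 0.40 and -0.01, and Cbr3 and Cbr4 were above the control median on 0 of 16 arrays.

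Sec14l3 was the only 1 of the 5 measured Sec14-like genes with a positive difference as deposited. Sec14l5 fell by 0.37 in odor pools (adjusted p = 0.0250) and by 0.34 in vehicle pools (adjusted p = 0.0362), and passed under 2 of the 4 other scalings in each treatment. Sec14l1, Sec14l2 and Sec14l4 did not pass, at -0.17, -0.37 and -0.48 in odor pools and -0.26, -0.31 and -0.45 in vehicle pools. Under housekeeping centring Sec14l3 is negative as well, in both treatments.

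Among mucins, 2 of the 8 measured were higher and Muc2 was not one of them. Muc1, a membrane mucin of epithelial surfaces, rose by 1.52 in odor and 2.29 in vehicle pools, and Muc20, another membrane mucin, by 2.59 and 2.94. Both stayed positive and past the threshold under the 4 other scalings. The gel-forming airway mucins Muc5ac and Muc5b were above the control median on 0 of 16 arrays.

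Within the aldehyde dehydrogenases, Aldh1a1 rose where Aldh1a7 did not pass. Aldh1a1, a retinal dehydrogenase, was above the control median on all 16 arrays and rose by 1.46 in odor pools (adjusted p = 0.00295) and by 1.38 in vehicle pools (adjusted p = 0.00468). It was higher in 8 of 8 pools and passed under 3 of the 4 other scalings in each treatment, with differences as low as 0.50 and 0.49 among them. Aldh1a7 and Aldh1a1 are close in sequence, and how far the array features of one catch transcripts of the other was not tested. Aldh1a2, Aldh1a3 and Aldh1b1 were above the control median on 0 of 16 arrays.

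None of the 5 measured relatives of Fmo2 passed (limma; 3 and 2 of them at an unadjusted p below 0.05 in odor and vehicle pools). Fmo1 came nearest with 0.77 in odor pools (adjusted p = 0.0625) and 0.48 in vehicle pools. Of the 3 relatives of Ephx1 none passed either, with 1 and 2 at an unadjusted p below 0.05. Ephx4 lay between 15.9 and 16.7 on all 16 arrays and differed by -0.16 and -0.18. Ephx2, the soluble epoxide hydrolase, was above the control median on 0 arrays.

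**Figure D3:**
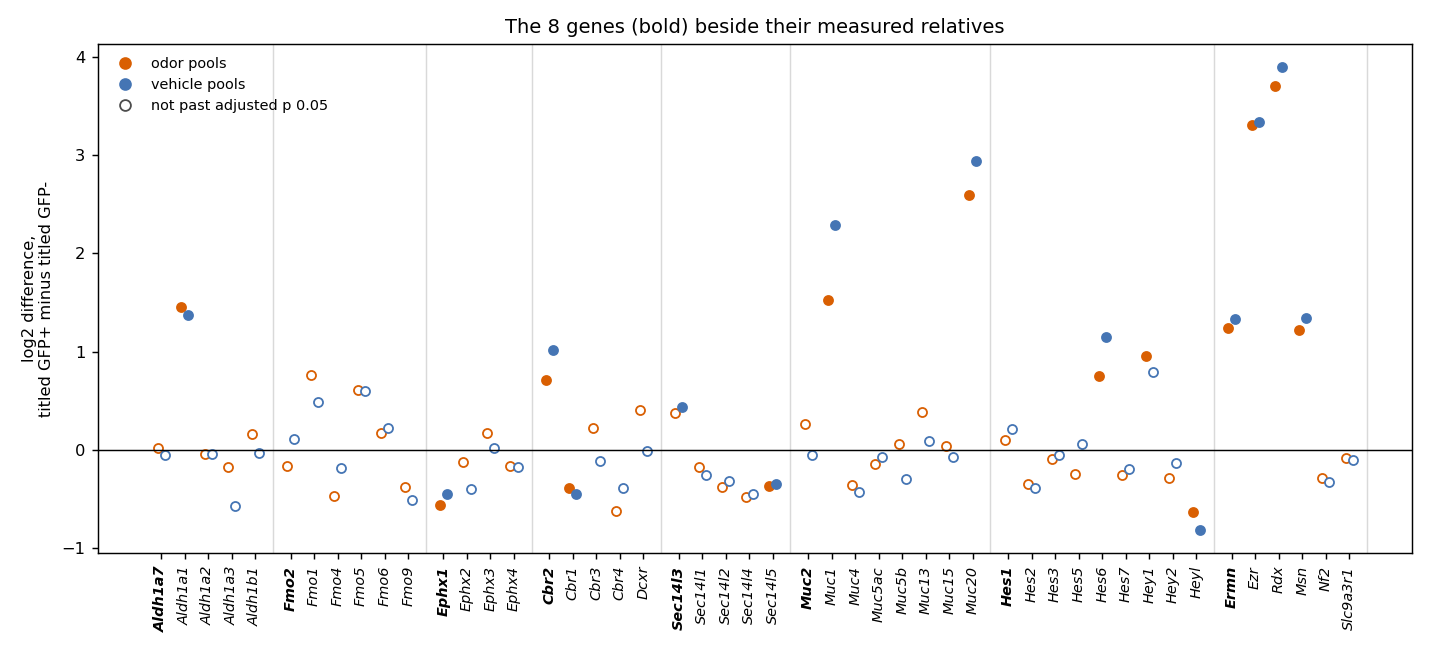
Log2 difference between arrays titled GFP+ and arrays titled GFP- (y axis) for the 8 genes (bold) and their measured relatives (x axis, families separated by lines), in odor pools (orange) and vehicle pools (blue). Filled points passed an adjusted p of 0.05. Ezr, Rdx, Msn, Muc1, Muc20 and Aldh1a1 lie above 0 and Cbr1 and Sec14l5 below it in both treatments and under every scaling tried, while Cbr2, Sec14l3, Hes6 and Hey1 are negative in at least 1 treatment under housekeeping centring.

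Hes1 itself could not be read, but other genes of its family and of the Notch pathway could. Hes6, a relative that does not answer to Notch and promotes neuronal differentiation, was higher by 0.76 in odor pools (adjusted p = 0.0370) and 1.15 in vehicle pools (adjusted p = 0.00389), although housekeeping centring gives -0.20 in odor pools. Hey1, a Notch target, rose by 0.95 in odor pools (adjusted p = 0.0216), where housekeeping centring gives -0.01, and was at 0.80 in vehicle pools (adjusted p = 0.0506). Heyl fell by 0.63 (adjusted p = 0.0494) and 0.81 (adjusted p = 0.0156), and passed under 2 of the 4 other scalings in odor and 3 in vehicle pools. Hes5 was above the control median on all 16 arrays and was at -0.24 and 0.06.

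Of 23 measured Notch pathway genes, 6 were higher and 4 lower in odor pools, and 7 were higher and 3 lower in vehicle pools, with medians of 0.05 and -0.09. Dll3, among the 3 lower in vehicle pools, was above the control median on 0 of 16 arrays. Lfng and Mfng, the fringe enzymes that modify Notch receptors, were not above the control median on any array titled GFP-. Lfng was at least 3.18-fold higher in odor and at least 2.16-fold higher in vehicle pools (adjusted p = 1.43e-05 and 1.95e-05), and Mfng at least 2.27-fold and 2.10-fold higher (adjusted p = 0.000102 and 3.02e-05). Notch2, the receptor found in sustentacular cells, rose by 1.98 in odor pools and was at least 2.92-fold higher in vehicle pools (adjusted p = 0.000331). The adjusted p of Lfng, Mfng and Notch2 are those of the differences as deposited (limma), and the bounds were not tested. The ligand Jag1 fell by 0.77 in both treatments. Lfng, Mfng, Notch2 and Jag1 kept their direction and passed under all 4 other scalings.

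P450 and conjugating enzymes listed for sustentacular cells were set beside the 8 genes. A share of them is expressed by several cell types, and the part of other cells in their differences was not tested. Of 23 measured, 12 were higher and 0 lower in odor pools, and 12 were higher and 1 lower in vehicle pools, with median differences of 0.82 and 0.78. Over all genes 12.8% were higher and 14.7% lower in odor pools and 12.3% and 13.6% in vehicle pools, the background for every list here. Under housekeeping centring 11 of the 23 were higher and 10 lower in each treatment. Of all 19505 genes, 1235 were then higher and 16908 lower in odor pools, and 1214 and 16752 in vehicle pools. Mgst1, a microsomal glutathione transferase, rose by 4.74 and 4.27, the sulfotransferase gene Sult1c1 by 2.52 and 2.85, Gstp1 by 2.21 and 2.35 and Cyp1a2 by 2.48 and 2.18. Cyp2g1, a P450 of sustentacular cells, rose by 1.69 and 1.47. The gene that was lower in vehicle pools, Cyp2e1, lay at or below the control median on all 16 arrays. Mgst1, Sult1c1, Gstp1, Cyp1a2 and Cyp2g1 all stayed positive and past the threshold under the 4 other scalings. No test of the 8 genes against the 23 was made.

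A further 22 genes that are known from sustentacular or other epithelial cells were looked up as well. Of these, 12 were higher and 2 lower in odor pools and 12 higher and 1 lower in vehicle pools, with medians of 0.55 and 0.66. In odor pools, Selenbp1 among the higher and Trp63 among the lower were above the control median on 0 of 16 arrays. In vehicle pools, Aox4 and Tspan8 among the higher were above it on 3 and 4 of the 16 arrays. Their vehicle differences as bounds, taken against that median, were -0.48 and -0.02 on the log2 scale, and these were not tested. Hepacam2 (4.76 and 5.07), the cadherin gene Cdh1 (4.57 and 4.28) and the keratin genes Krt18 (3.61 and 3.63) and Krt8 (2.73 and 2.69) had the largest differences in vehicle pools. Cyp2g1 and Notch2 are in this list as well, and several of its genes are shared with other epithelial cells.

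Markers of other cell types moved with the same fractions. In both treatments all 10 neutrophil genes passed on the titled GFP+ side, with a mean log2 signal of 12.9 to 15.2 in odor arrays titled GFP+ and 5.60 to 6.76 in those titled GFP-, and of 13.4 to 14.6 in vehicle arrays titled GFP+ and 5.72 to 6.94 in those titled GFP-. Of 9 macrophage genes, 8 and 9 were higher, and of 7 microvillar cell genes all 7 in both. The microvillar gene Chat was among them although above the control median on 0 of 16 arrays, and Il25 although above it on 5. The microvillar mean was 7.36 to 8.56 and 4.51 to 5.39 in odor arrays titled GFP+ and GFP-, and 7.28 to 8.84 and 4.83 to 5.46 in vehicle arrays titled GFP+ and GFP-. Of 16 immediate early genes, which dissociation of tissue as well as activity can induce, 16 and 15 were higher.

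Of 9 markers of Bowman glands, which lie below the epithelium and share many enzymes with sustentacular cells, 5 and 4 were higher. Their mean was 7.48 to 8.50 and 6.35 to 7.17 in odor arrays titled GFP+ and GFP-, and 7.16 to 8.45 and 6.22 to 7.07 in vehicle arrays titled GFP+ and GFP-. Of 9 genes of respiratory secretory cells 3 were higher in each treatment, and the club cell gene Scgb1a1 was above the control median on 0 arrays. Of 18 mature neuron genes, 0 were higher and 10 lower in each treatment. Of 7 genes of ciliated cells 0 were higher and 3 lower. All 5 horizontal basal cell genes (1 higher and 1 lower in odor pools, 0 in vehicle pools) and 5 of 6 endothelial genes (0 called in either) lay at or below the control median on every array. The part of these cells in the differences of the 8 genes was not tested.

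Whether odor changed the fraction differences was asked with the interaction term of the same model. None of the 8 genes passed (limma, adjusted p below 0.05), against 0.00513% of all genes, which is 1 gene, and none of the 8 had an unadjusted p below 0.05, against 3.27% of all genes. The difference between treatments was -0.10 for Ermn (95% interval -1.01 to 0.82), -0.31 for Cbr2 (-0.81 to 0.20), -0.07 for Sec14l3 (-0.51 to 0.38) and -0.11 for Ephx1 (-0.56 to 0.34). A call of Sec14l3 in vehicle pools and not in odor pools therefore does not show a difference between the treatments.

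Odor was also compared with vehicle within each fraction, with pools as the replicates. In the arrays titled GFP+ none of the 8 genes passed, against 0.00513% of all genes, and none had an unadjusted p below 0.05, against 4.88%. The differences ran from -0.43 for Cbr2 (95% interval -1.30 to 0.43) to 0.31 for Aldh1a7 (-0.15 to 0.77). In the arrays titled GFP- none passed, against 0.0% of all genes, and 1 had an unadjusted p below 0.05, against 5.88%. That gene was Muc2, with 7.20, 6.98, 6.33 and 6.72 in odor pools 1 to 4 and 7.73, 7.06, 7.56 and 7.18 in vehicle pools, so that the groups overlapped, with the odor pool the lower one in all 4 pairs of the same number. Its difference was -0.57 ± 0.25 (95% interval -1.10 to -0.05; limma, adjusted p = 0.831), and ± 0.20 with the pool number as a block (adjusted p = 0.388; 0.388 to 1.00 over the alternatives). For Ermn, Cbr2, Sec14l3, Fmo2 and Ephx1 in the arrays titled GFP- the differences lay between -0.13 and 0.18, that of Cbr2 with an interval of -0.99 to 0.74. With the pool number as a block, the Cbr2 difference had an SE of 0.19 here and of 0.15 in the titled GFP+ fraction (adjusted p = 0.871 and 0.818), against 0.41 in both without it.

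The group means of the 3 genes called in both treatments were as follows. Ermn averaged 6.50 ± 0.93 in odor arrays titled GFP+ and 5.26 ± 0.59 in odor arrays titled GFP-, and 6.55 ± 0.63 in vehicle arrays titled GFP+ and 5.22 ± 0.52 in vehicle arrays titled GFP- (SD, n = 4 each). Cbr2 averaged 12.08 ± 0.79 and 11.38 ± 0.51 in odor arrays titled GFP+ and GFP-, and 12.52 ± 0.75 and 11.50 ± 0.88 in vehicle arrays titled GFP+ and GFP-. Ephx1 averaged 10.61 ± 0.16 and 11.17 ± 0.23 in odor arrays titled GFP+ and GFP-, and 10.78 ± 0.47 and 11.23 ± 0.24 in vehicle arrays titled GFP+ and GFP-. For Ermn and Cbr2 both groups titled GFP+ stood above both titled GFP-, for Ephx1 below them, and within a fraction no difference between the treatments passed the threshold.

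The spread between pools was itself shared by several of the genes. Cbr2 and Sec14l3 were highest in pool 1 and lowest in pool 4 in all 4 groups, odor and vehicle alike. Muc2 and Ermn were highest in pool 1 in all 4 groups too, as was Cyp2g1, while Omp was lowest in pool 1 in all 4. Fmo2, Hes1 and Ephx1 had no pool that was highest in more than 2 groups. Odor and vehicle pools share a number in the titles, and pools of the same number correlated over all genes in the arrays titled GFP- (0.198 to 0.279), but the titles do not say what the number stands for.

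Taken as deviations from the 4 group means over 16 arrays, Cbr2 and Sec14l3 correlated with a Pearson r of 0.94 (0.97 over the 8 arrays titled GFP+ and 0.91 over the 8 titled GFP-). Muc2 correlated with Cbr2 at 0.85 and with Sec14l3 at 0.88, and Cyp2g1 with Cbr2 at 0.85 and with Sec14l3 at 0.86. Ermn correlated with Cyp2g1 at 0.77 and with Cbr2 at 0.48. Fmo2 lay between -0.11 and 0.34 with the other 7 genes. These correlations are descriptions, since the 16 arrays come from 8 pools and share the tissue, the sort and the array processing.

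The same deviations moved with other quantities of the pools. Cbr2 correlated with the mean of the P450 and conjugating enzymes at 0.88, with that of the respiratory secretory genes at 0.88, with the neutrophil mean at 0.81, with the Bowman gland mean at 0.75, with the array median at 0.68 and with Omp at -0.63. Sec14l3 correlated with the respiratory secretory mean at 0.92 and Muc2 at 0.89. That mean lay at only 4.61 to 5.55 over the arrays, and 5 of its 9 genes were at or below the control median on every array. Cyp2f2 belongs to it and to the P450 and conjugation list, so these correlations are not separate. A share of these lists is expressed by several cell types, and the part of tissue composition in the pool spread was not tested.

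**Figure D4:**
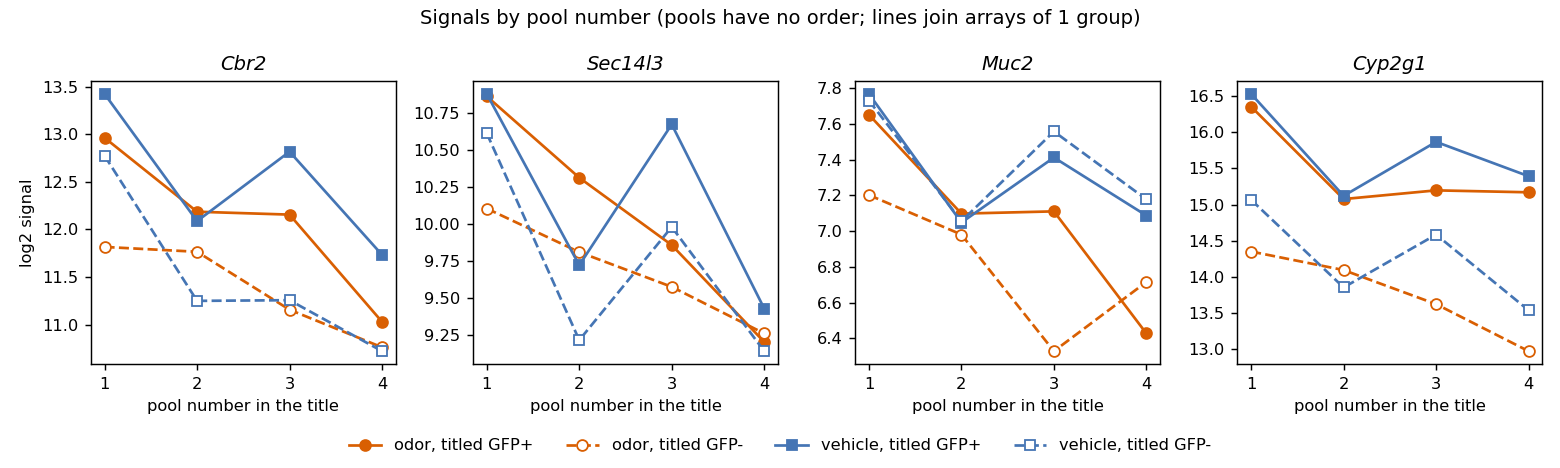
Log2 signal (y axis) of Cbr2, Sec14l3, Muc2 and Cyp2g1 by pool number in the title (x axis; numbers carry no order), with lines joining the arrays of 1 group: odor in orange, vehicle in blue, titled GFP+ solid and titled GFP- dashed. Pool 1 is the highest in all 4 groups for all 4 genes, and pool 4 is the lowest in all 4 groups for Cbr2 and Sec14l3.

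By the same measure, the genes most like each of the 8 were looked for among 9752 genes with a mean signal above that of the median gene. Ermn was most like Chil6 (0.92), Vmo1 (0.91) and Cyp1a2 (0.90). Cbr2 was most like Sec14l3 (0.94), Gstm1 (0.92) and Atp2a3 (0.90), and Sec14l3 like Cbr2 (0.94), Cyp2f2 (0.93) and Atp2a3 (0.92). Cyp1a2, Cyp2f2 and Gstm1 are detoxifying enzymes of the P450 and conjugation list. Atp2a3 was higher in the arrays titled GFP+ by 4.30 in odor and 3.71 in vehicle pools, more than Cbr2 or Sec14l3. Muc2 was most like Atp2a3 (0.90), Wfdc21 (0.89) and Plcg2 (0.88), and Ephx1 like Sox9 (0.87), Sec22c (0.83) and Crtc1 (0.82). Sox9 is a transcription factor of Bowman glands, and it was higher in the arrays titled GFP+ by 4.57 and 4.21, where Ephx1 was lower. Wfdc21 was higher by 4.36 and 4.42 and Plcg2 by 3.64 and 3.69, while Muc2 did not pass. Deviations from the group means leave such fraction differences out. Fmo2 was most like Ppil6 (0.87), Csrp2 (0.84) and Nisch (0.79), and Aldh1a7, near background, like Farsb (0.84), Kcnk1 (0.80) and Oprd1 (0.80). For Hes1, which lay below background, Atp6v0e (0.89), Tspo (0.88) and Slc39a1 (0.87) came first.

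The scaling of the arrays decided how far the 8 genes as a group were higher or lower. The median fraction difference of all genes moved to -0.53 in odor and -0.51 in vehicle pools with median centring, to -0.02 in both with cyclic loess, to -1.11 and -1.03 with housekeeping centring and to 0.13 and 0.17 with centring on mature neuron genes. Relative to the median of all genes as deposited, Ermn stood at 1.39 and 1.48, Cbr2 at 0.86 and 1.16, Sec14l3 at 0.52 and 0.58 and Ephx1 at -0.41 and -0.30. The housekeeping genes were not level between fractions: of 16 measured, 10 were higher and 0 lower in odor pools and 8 higher and 1 lower in vehicle pools, with medians of 0.68 and 0.47, and B2m reached 4.87 and 4.54.

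**Figure D5:**
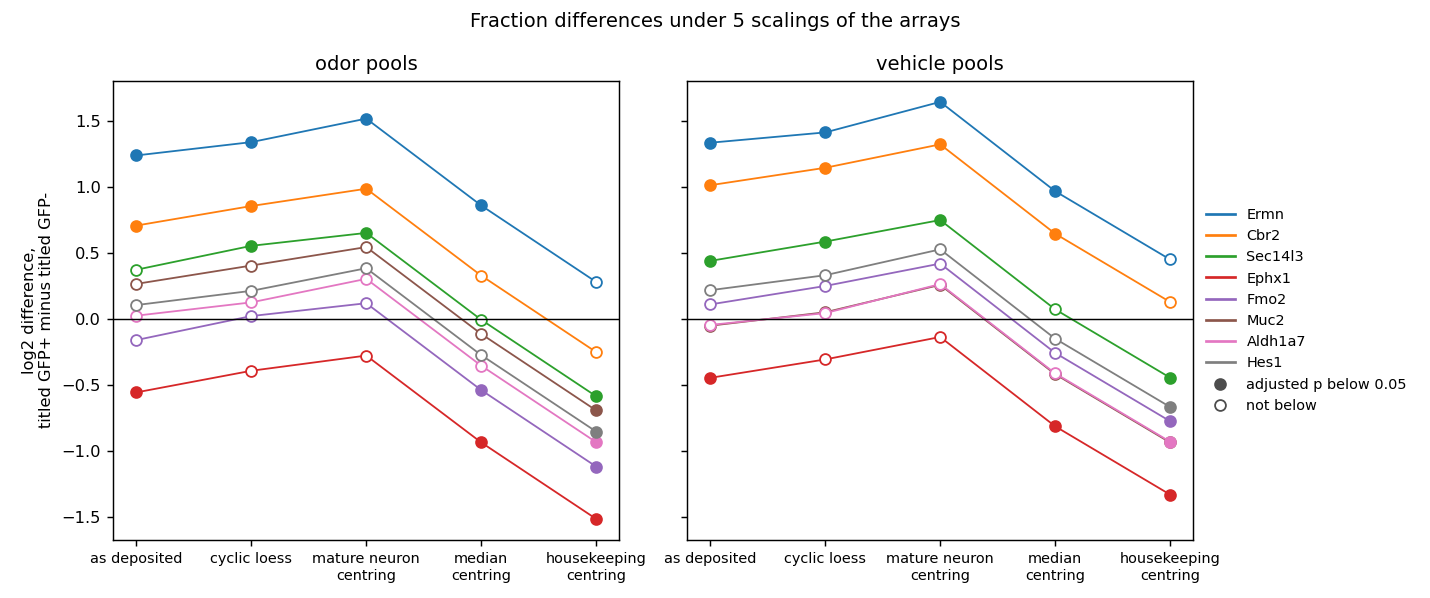
Log2 difference between arrays titled GFP+ and arrays titled GFP- (y axis) of the 8 genes (coloured lines) as deposited and under 4 other scalings of the arrays (x axis), in odor pools (left) and vehicle pools (right). Filled points passed an adjusted p of 0.05. Centring shifts all genes by the same amount and cannot change their order, so only cyclic loess could. Under cyclic loess Ermn and Cbr2 stayed at the top and Ephx1 at the bottom, and Muc2 and Aldh1a7 changed places in vehicle pools. Housekeeping centring moves all 8 genes down and turns Cbr2 in odor pools and Sec14l3 in both to negative. It also turns Muc2 and Aldh1a7 in odor pools, Fmo2 in vehicle pools and Hes1 in both. All of these but Cbr2 passed the threshold there.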

How the data were processed

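The deposited values are log2 signals of 16 Affymetrix arrays, which the submitters' processing notes credit to Affymetrix Expression Console; its version and the normalization are not given in the sources used. They were used as deposited. Of 28846 features, 19572 were named for 1 gene through the platform annotation and 9274 for none, and keeping 1 feature per gene gave 19505 genes. Groups follow the titles. Fraction contrasts were fitted with limma 3.58.1 in R 4.3.3 (eBayes with a variance trend) with the pool as a block, since both fractions of a pool come from the same mice. Odor was set against vehicle with the pool as a random block (correlation 0.164). Both fits used 1 spread per gene over all 16 arrays, so an SE is not that of its own groups alone. P-values were adjusted over all 19505 genes by Benjamini-Hochberg, with a threshold of 0.05. Pools are labelled as separate samples of 3 mice. Pool numbers shared by odor and vehicle pools correlated at 0.198 to 0.279 in arrays titled GFP- and 0.0787 to 0.410 in arrays titled GFP+. Error bars of groups are SD over 4 pools. The fits were tested on simulated data. The genes, lists and motifs were chosen with earlier results of these data known. Alternatives covered scaling, pool block, variance prior, dim genes, several features of a gene and each pool left out. List genes named are at most the 4 with the largest called difference in vehicle pools, or all called where 5 or fewer were, and relatives of the 8 genes.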

Additional observations from a re-analysis of the deposited data

Results flagged for a closer look

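Of 32 sets of 4 arrays (8 genes in 4 groups), 3 held an array that stood apart from the other 3 by a gap close to the whole range of the set, and all 3 were of Hes1. Chance alone marks about 1 in 20 such sets. In odor arrays titled GFP-, pool 1 had the lowest Hes1 signal at 4.04, with the others between 4.30 and 4.32. In vehicle arrays titled GFP+, pool 4 was lowest at 4.02, with the others between 4.33 and 4.34. In vehicle arrays titled GFP-, pool 1 was highest at 4.32, with the others between 3.92 and 3.96. All these values lie below the negative control median of their arrays.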

How the results depend on the processing

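Of 755 values of the 8 genes under the alternatives, 709 kept their direction and their side of the threshold or, where neither value passed, changed sign at most (46 values). The 755 values cover all 5 comparisons. In the interaction and the contrasts between treatments no value passed under any setting, so those all count among the 709 by definition. The losses, gains and reversals below are all in fraction contrasts. A further 31 lost and 7 gained the threshold, and 8 reversed, all under housekeeping centring: in odor pools Cbr2 (-0.25), Muc2 (-0.69), Hes1 (-0.85), Sec14l3 (-0.59) and Aldh1a7 (-0.94), and in vehicle pools Hes1 (-0.67), Sec14l3 (-0.45) and Fmo2 (-0.78). The housekeeping list itself was higher in arrays titled GFP+. Of the 8 genes, 3 passed in odor pools as deposited, where 5362 of all 19505 genes passed. Under housekeeping centring 6 passed, all of them lower, where 18143 of 19505 genes passed. Ermn and Cbr2 were not among these 6. With 1 pool left out 2 to 4 passed, against 3709 to 5518 of all genes. In vehicle pools 4 passed, against 2 without a variance trend, 1 without the pool block, 1 with the pool as a random block and 2 to 4 with 1 pool left out (2 without vehicle pool 2, 3 or 4). Of all genes, 5064 passed as deposited, 4743 without a variance trend and 4358 without the pool block. With the pool as a random block 5294 passed, and with 1 pool left out 3552 to 5143. The cause of the changes in these counts was not tested. Counts of 0 for the treatment contrasts stayed 0 in every alternative, including the one with the shared pool number as a block. That block gave 2 calls among all 19505 genes in the titled GFP+ fraction and 15 in the titled GFP- one, against 1 and 0 without it. Over all genes, the split of higher to lower calls was 2502 to 2860 (odor) and 2406 to 2658 (vehicle) as deposited, 1902 to 12906 and 1818 to 12539 with median centring, 2922 to 1395 and 2792 to 1411 with cyclic loess, 1235 to 16908 and 1214 to 16752 with housekeeping centring, and 3776 to 826 and 4165 to 691 with centring on mature neuron genes. Hes1 at all, and Aldh1a7 and Ermn in part, are limited by signal over background.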
